A study of Mus musculus with 18 samples.

Results

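A set of 8 genes of simple epithelia was followed from mouse embryonic stem (ES) cells through neural progenitors to neurons: Epcam, Spint2, the keratins Krt8, Krt18 and Krt19, and the claudins Cldn4, Cldn6 and Cldn7. The members were all probe sets that the array's annotation assigned to these symbols and to no other gene. That gave 12 probe sets for the 8 genes, out of 34945 probe sets with 1 symbol for 18193 genes. Krt8 had 3 probe sets, Epcam and Spint2 had 2 each, and the other members had 1. All 12 passed the filter on dim probe sets, and the brightest of each gene gave its value.

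A simple epithelium is a single layer of cells sealed to each other by tight junctions and held in shape by keratin filaments. Keratin filaments are built from pairs of a type II and a type I keratin, and Krt8 (type II) pairs with Krt18 or Krt19 (type I). Claudins are the membrane proteins that form the tight junction strands, Epcam encodes a cell surface adhesion protein that marks ES cells as well as epithelia, and Spint2 encodes a Kunitz-type inhibitor of membrane serine proteases. ES cells have epithelial character, with E-cadherin junctions, and cells of the neural lineage exchange this program for N-cadherin and vimentin.

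The series holds 18 Affymetrix arrays from C57/B6 mouse cells, in 6 groups of 3 arrays called biological replicates by the labels. The groups were ES cells, neural progenitors and neurons, each Hmgn1+/+ or Hmgn1-/-. HMGN1 is a small protein that binds nucleosomes and loosens chromatin. The ES cells were kept with LIF and serum replacement, on mitomycin-treated fibroblast feeders or without feeders, and the neural cells were derived from them with a kit for dopaminergic neurons. Each array received cRNA from 6 ug of total RNA. The labels do not give the number of ES cell lines of each genotype or the cultures that had feeders, and a genotype difference cannot be told apart from other differences between the lines. Nothing in the labels says that replicates were separate differentiations, so the p-values measure the spread between these arrays.

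The values are intensities on a linear scale, with array medians between 55.7 and 60.5. The 40th percentile of an array, used here as the level under which a probe set has only an upper bound, lay between 36.6 and 38.7. Arrays of one group correlated at r = 0.9949 to 0.9982 across genes, and no pair of arrays was identical. Replicate 3 of the +/+ ES cells had 32 genes more than 2-fold from its group mates, against 0 to 12 on any other array. On 3 of the 4 Hmgn1 probe sets every -/- array lay below every +/+ array of its cell type, but the -/- signal stayed high, at intensities of 5747.7 to 9219.2 against 7750.3 to 12640.1 in +/+ cells. The labels do not place the deletion relative to these probes, which therefore do not check the loss of the protein. The remaining Hmgn1 probe set was under the 40th percentile on 17 of 18 arrays. The summed intensity of 10 ES cell markers was 47111 to 48725 in ES cells, 1219 to 2058 in progenitors and 518 to 743 in neurons. The summed intensity of 11 neuron markers was 38957 to 43873 in +/+ neurons, 37117 to 38727 in -/- neurons and 3657 to 8861 in the other groups. For 10 neural progenitor markers the sum was 22005 to 23937 in progenitors and neurons and 7802 to 8300 in ES cells. Much of it was Fabp7 in +/+ progenitors and neurons (means of 11960 and 11990) and Sox2 in +/+ ES cells (6783). From +/+ progenitors to +/+ neurons 3 of the 10 markers rose and 4 fell (limma, adjusted p under 0.05). Of all genes, 79% passed at that step.

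Promoter sequence is shown for members that moved together or apart. Krt8 and Krt18 are neighbouring genes and had nearly the same profile. Epcam and Cldn4 fell together with differentiation. On the brighter of 2 Epcam probe sets they moved in opposite directions between genotypes in progenitors. Each line gives the 250 bases before the annotated start site, 5′ to 3′ on the gene's strand, from RefSeq on build GRCm38.p6. The capitals mark CACCTG or its reverse complement CAGGTG, the E-box read by ZEB and SNAI repressors of epithelial genes. The windows are chr17:87635729-87635978 on the plus strand for Epcam, chr15:102004343-102004592 on the minus strand for Krt8, chr15:102027966-102028215 on the plus strand for Krt18 and chr5:134946935-134947184 on the minus strand for Cldn4.
Epcam: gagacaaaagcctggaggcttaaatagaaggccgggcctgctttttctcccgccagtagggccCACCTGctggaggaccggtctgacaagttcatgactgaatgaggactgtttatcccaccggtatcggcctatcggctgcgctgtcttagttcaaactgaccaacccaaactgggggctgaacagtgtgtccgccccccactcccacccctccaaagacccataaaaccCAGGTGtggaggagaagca
Krt8: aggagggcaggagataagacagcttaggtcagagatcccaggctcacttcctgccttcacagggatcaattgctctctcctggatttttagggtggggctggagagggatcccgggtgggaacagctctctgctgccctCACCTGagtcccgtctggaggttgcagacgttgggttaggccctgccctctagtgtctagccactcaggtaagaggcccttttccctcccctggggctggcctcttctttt
Krt18: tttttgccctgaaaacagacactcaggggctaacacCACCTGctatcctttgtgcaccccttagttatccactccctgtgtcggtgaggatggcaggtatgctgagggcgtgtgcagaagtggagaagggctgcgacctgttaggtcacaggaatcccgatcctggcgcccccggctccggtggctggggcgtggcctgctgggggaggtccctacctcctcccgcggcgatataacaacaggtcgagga
Cldn4: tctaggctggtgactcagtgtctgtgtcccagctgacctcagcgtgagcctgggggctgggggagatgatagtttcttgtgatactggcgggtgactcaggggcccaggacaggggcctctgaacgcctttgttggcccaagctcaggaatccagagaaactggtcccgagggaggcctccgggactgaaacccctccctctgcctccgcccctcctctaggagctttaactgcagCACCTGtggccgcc

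RefSeq promoters were matched for 7 of the 8 members, all but Krt19, and Cldn7 had 2 start sites. On either strand, CACCTG was found in the window of 7 of these 7 genes, and in 17.2% of 32851 windows of the same length over all genes. Spint2 had 3 matches and Epcam 2, and of the 2 Cldn7 windows the one at the second start site held it. The GC box GGGCGG was found in 5 of 7 members (Epcam, Spint2, Cldn4, Cldn6 and Cldn7, none of them a keratin) against 32.7% of all windows. TGACTCA, the AP-1 element, occurred in Cldn4 alone, at 2 positions, against 4.46% of all windows. Neither TATAAA (12.4% of all windows) nor the grainyhead-like sequence AACCGGTT (0.116%) occurred in a member's window. None of the matches of different motifs overlapped. The GC content of the members' windows was 51.2% to 69.6%, with a median of 52.4% over all windows. These matches describe sequence and were not tested for binding.

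Along the lineage the members fell into surface genes that were highest in ES cells and keratins that were highest in progenitors. In +/+ cells, 3 of 8 members rose and 5 fell from ES cells to progenitors, where 78.5% of all 14432 tested genes were called (limma, Benjamini-Hochberg adjusted p under 0.05). In -/- cells the counts were again 3 and 5, against 77.7% of all genes. The members that rose were the 3 keratins, and those that fell were Epcam, Spint2 and the 3 claudins, in both genotypes. With so many genes called, the direction and size describe the members better than the call. All changes are differences of mean log2(value + 1), which understates the change of dim genes, with the standard error (SE) of the fit and n = 3 arrays per group. In such bulk samples, fewer cells of a type and less RNA per cell cannot be told apart.

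Epcam had intensities of 5627.2, 5920 and 5688.4 on the +/+ ES cell arrays, 1207.3, 1292.7 and 1160.8 in +/+ progenitors, then 436, 454.8 and 420.8 in +/+ neurons. In -/- cells it had 5393, 5500.3 and 5248 in ES cells, 581.5, 656.1 and 586.9 in progenitors, then 183.2, 189.3 and 241.4 in neurons. On this probe set, the brighter of 2, it thus fell at each step in both genotypes, and the ranges of the 3 cell types did not overlap. The change from ES cells to progenitors was -2.24 (SE 0.08, adjusted p = 2.088e-13) in +/+ and -3.15 (SE 0.08, adjusted p = 2.521e-15) in -/- cells by limma. From ES cells to neurons Epcam was 13.1-fold lower in +/+ and 26.4-fold lower in -/- cells.

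The claudins showed the same order of cell types. Cldn4, a claudin of tight simple epithelia, had 1080.1, 893.1 and 814.7 in +/+ ES cells and 873.2, 897.2 and 861.7 in -/- ES cells. Its progenitor values were 108.4, 112.7 and 111.5 in +/+ and 191.9, 215.7 and 175.6 in -/- cells. In neurons all 6 arrays read 23.2 to 29.3, under the 40th percentile, so Cldn4 was at least 24.2-fold lower in +/+ neurons and at least 22.7-fold lower in -/- neurons than in ES cells of the same genotype. These folds set the neuron arrays at their own 40th percentile.

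Cldn6, a claudin typical of early embryonic epithelia and pluripotent cells, had 301.4, 280.2 and 304.6 in +/+ ES cells, 180.4, 182.4 and 168.6 in +/+ progenitors, then 45.1, 53.1 and 50 in +/+ neurons. The -/- values were 273.6, 308 and 291.7, then 132.3, 127.8 and 125.5, then 40.3, 44.9 and 32.7, the last under the 40th percentile of its array. Its fall from ES cells to progenitors was the smallest of the claudins, -0.73 (SE 0.09) in +/+ cells, and its fall from progenitors to neurons was -1.82 (SE 0.09).

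Cldn7, which is found along the sides of epithelial cells and binds the Epcam protein, had 921.4, 913.9 and 897.8 in +/+ ES cells, 302, 313.1 and 291 in +/+ progenitors, then 105.4, 142.8 and 97.6 in +/+ neurons. The -/- arrays read 676.8, 763.5 and 826 in ES cells, 331.8, 333.3 and 331.1 in progenitors, then 77.5, 94.7 and 94.2 in neurons. The 3 cell types did not overlap. The step from ES cells to progenitors was -1.59 (SE 0.11) in +/+ and -1.18 (SE 0.11) in -/- cells.

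Spint2, the protease inhibitor, had 2633.3, 2487.3 and 2402.8 in +/+ ES cells, 1361.5, 1302.6 and 1328.2 in +/+ progenitors, then 1407.5, 1395.2 and 1434.1 in +/+ neurons. In -/- cells it had 2234.7, 2368.2 and 2346, then 912.9, 911.9 and 784.9, then 1100.8, 1068 and 1134.6. From progenitors to neurons the difference was 0.09 (SE 0.06, adjusted p = 0.192 by limma) in +/+ cells and 0.34 (SE 0.06, adjusted p = 4.976e-05) in -/- cells. The second Spint2 probe set gave -0.15 (adjusted p = 0.05175, limma) for this step in +/+ cells, where its neuron arrays (701.8 to 725) were all below its progenitor arrays (753.2 to 827.5), and 0.05 in -/- cells (adjusted p = 0.4912). The direction of this step thus differed between the probe sets in +/+ cells.

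The keratins peaked in progenitors. Krt8 had 715.2, 753.9 and 730.9 in +/+ ES cells, 2311, 2361.5 and 2495.7 in +/+ progenitors, then 764.6, 735.9 and 802.5 in +/+ neurons. The -/- arrays read 519.9, 550.7 and 630 in ES cells, 2180.9, 2244.8 and 2148.2 in progenitors, then 405.7, 449 and 471.4 in neurons. Every progenitor array was above every ES cell and neuron array, a rise of 1.70 (SE 0.07) in +/+ and 1.95 (SE 0.07) in -/- cells.

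Krt18, its filament partner, had 742.6, 761.2 and 756 in +/+ ES cells, 2026.3, 1950.7 and 2128.9 in +/+ progenitors, then 1071.7, 983.7 and 1051.4 in +/+ neurons. The -/- values were 606.6, 591.9 and 655.8, then 2213.7, 2223.8 and 2066.8, then 518, 491.8 and 484.5. Its rise from ES cells to progenitors was 1.43 (SE 0.06) in +/+ and 1.81 (SE 0.06) in -/- cells. In +/+ neurons Krt18 remained 1.37-fold above ES cells, whereas in -/- neurons it was 1.24-fold below ES cells (adjusted p = 6.48e-07 and 5.832e-05, limma).

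Krt19, the smallest type I keratin, was dimmer on its probe set, with 101.2, 111.6 and 110.9 in +/+ ES cells, 319.5, 332.1 and 333.5 in +/+ progenitors, then 140.3, 149.3 and 161.4 in +/+ neurons. In -/- cells it had 68.7, 84.1 and 76.7, then 431.2, 426.5 and 397.6, then 98.5, 185.3 and 170.8. Progenitors were highest in both genotypes, by 1.60 (SE 0.16) over +/+ ES cells and 2.44 (SE 0.16) over -/- ES cells. The 3 arrays of -/- neurons were spread widely, with replicate 1 at 98.5 below the others.

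**Figure D1:**
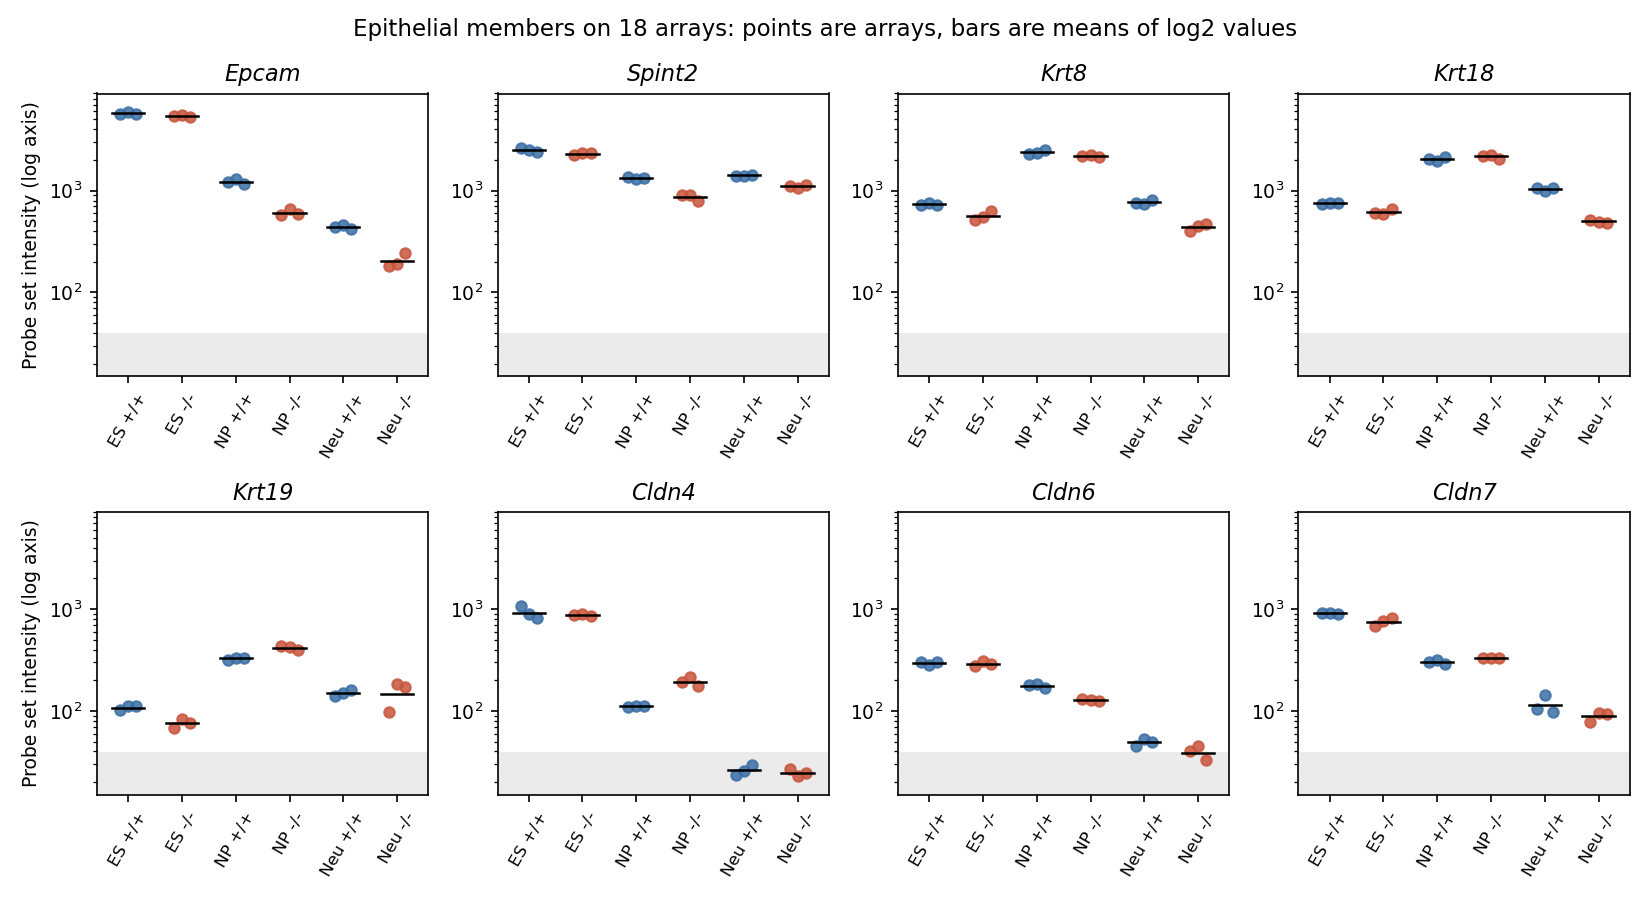
Probe set intensity (log axis) of each member on the 18 arrays, with +/+ arrays in blue, -/- arrays in red, and a bar at the mean of the 3 log2 values; the grey band lies below the highest 40th percentile of an array, 38.7. Epcam and the claudins step down from ES cells to neurons, the 3 keratins are highest in progenitors (NP), and Cldn4 lies in the grey band on all 6 neuron (Neu) arrays.

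From progenitors to neurons no member rose and 7 fell in +/+ cells, where 79% of all genes were called. In -/- cells 1 rose and 7 fell, against 80.9% of all genes. Between ES cells and neurons, 2 members rose and 5 fell in +/+ cells (88.7% of all genes called), and 1 rose and 7 fell in -/- cells (88.3%). The member without a call in +/+ cells was Krt8, which differed by 0.07 (SE 0.07) between neurons and ES cells. Krt19 was above ES cells in neurons of both genotypes, by 0.47 (SE 0.16) in +/+ and 0.93 (SE 0.16) in -/- cells. The +/+ value was 0.20, and not called, after quantile normalization.

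**Figure D2:**
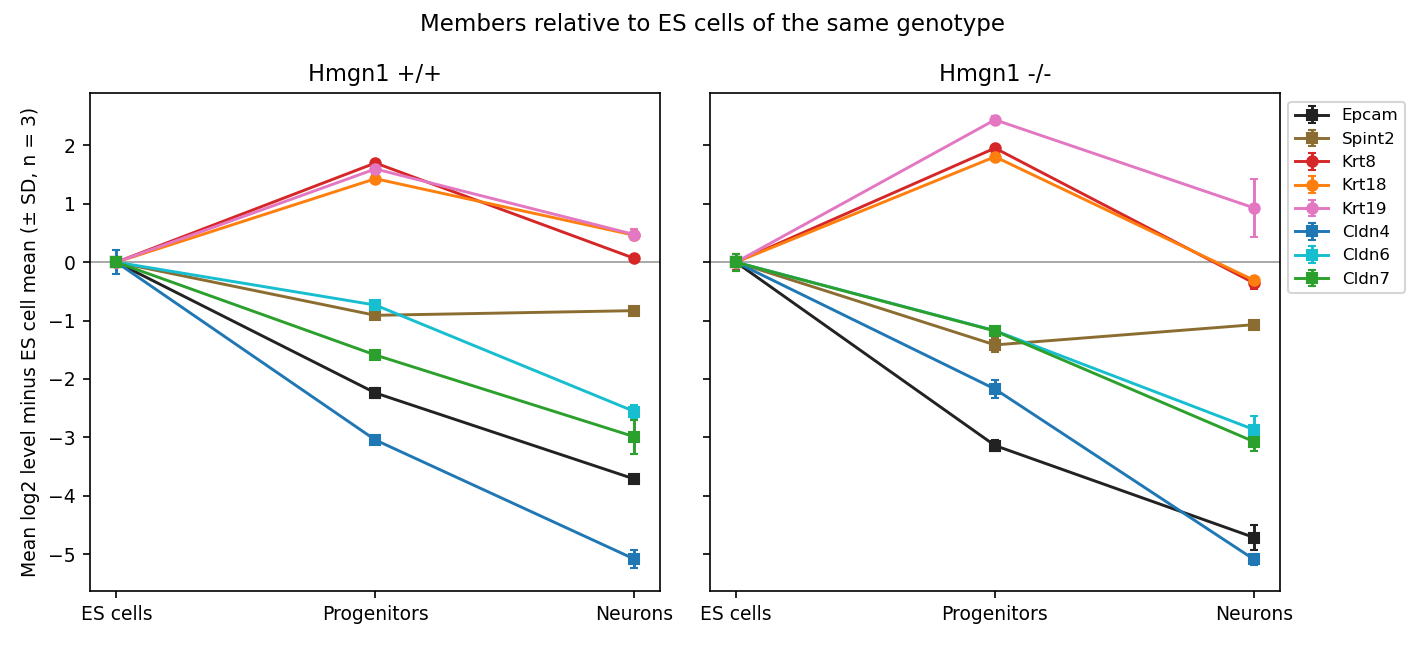
Mean log2(value + 1) of each member minus its mean in ES cells of the same genotype, for ES cells, progenitors and neurons, with +/+ on the left and -/- on the right; bars are the SD of the 3 arrays of each group, circles are keratins and squares the other members. The keratins rise to between 1.43 and 2.44 in progenitors and return toward the ES cell level, while Epcam and the claudins fall at both steps; the Cldn4 points in neurons come from arrays under the 40th percentile.

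Ordered by level over the 6 groups, Epcam ran from +/+ ES cells down to -/- neurons, and the +/+ and -/- ES cells were the only neighbours that did not differ. For Cldn4, the ES cells of both genotypes did not differ, nor did the neurons. For Cldn6 the ES cells of both genotypes did not differ, and for Cldn7 neither the ES cells nor the progenitors of both genotypes did. Spint2 did not differ between the ES cells of both genotypes or between +/+ neurons and +/+ progenitors. For Krt8 the progenitors of both genotypes did not differ, nor did +/+ neurons and +/+ ES cells. Krt18 did not differ between the progenitors of both genotypes, and Krt19 between those or between the neurons of both genotypes. A missing call in this order does not show that levels were equal.

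In ES cells, the 3 keratins among the members had less signal in -/- cells. None of the 8 members rose and 3 fell, and 14.9% of all genes were called. The members that fell were Krt8, by 1.30-fold (log2 difference -0.38, SE 0.07, adjusted p = 0.002557, limma), Krt18, by 1.22-fold (-0.29, SE 0.06, adjusted p = 0.003322), and Krt19, by 1.41-fold (-0.49, SE 0.16, adjusted p = 0.04721). For each of them every -/- array was below every +/+ array. The median difference of the members was -0.19, and that of all tested genes 0.04.

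The surface genes did not pass the test in ES cells. Epcam differed by -0.09 (SE 0.08, 95% interval -0.27 to 0.08), Spint2 by -0.11 (SE 0.06) and Cldn7 by -0.27 (SE 0.11, adjusted p = 0.1106, limma), although the arrays of the 2 genotypes did not overlap for any of these. Cldn4 (-0.07) and Cldn6 (-0.02) overlapped between genotypes. The ES cell calls were sensitive to the fit. With the ES cell arrays fitted alone, Krt8 and Krt18 had adjusted p = 0.07515 and 0.07655 by limma, 1 member was called in place of 3, and 234 genes in place of 2144 were called in all. The Krt19 call was lost in 8 of 16 alternatives, with adjusted p up to 0.1345.

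In progenitors 4 surface genes differed between genotypes and the 3 keratins did not pass the test. Of the 8 members 1 rose and 3 fell in -/- cells, with 17% of all genes called. Epcam was 2.01-fold lower (log2 difference -1.004, SE 0.08, adjusted p = 3.064e-07, limma), with 581.5 to 656.1 in -/- against 1160.8 to 1292.7 in +/+ cells. Spint2 was 1.53-fold lower (-0.62, SE 0.06, adjusted p = 1.293e-06) and Cldn6 1.38-fold lower (-0.46, SE 0.09, adjusted p = 0.001803). Cldn4 went the other way, 1.74-fold higher (0.80, SE 0.10, adjusted p = 1.986e-05). The arrays of both genotypes were apart for each of these members. The median difference of the members was -0.02, and that of all genes 0.002.

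Krt8 differed by -0.12 (SE 0.07, adjusted p = 0.274, limma) and Krt18 by 0.09 (SE 0.06, adjusted p = 0.32) in progenitors, the cells in which both were brightest. Krt19 was at 397.6 to 431.2 in -/- and 319.5 to 333.5 in +/+ progenitors, a difference of 0.35 (SE 0.16, adjusted p = 0.1631) whose interval of 0.01 to 0.68 just left out zero. It was called when the progenitor arrays were fitted alone (adjusted p = 0.002018, limma) and with array weights (0.03679). Cldn7 differed by 0.14 (SE 0.11, adjusted p = 0.4878).

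In neurons all calls ran one way. None of the 8 members rose and 6 fell in -/- cells, with 13.2% of all genes called. The median difference of the members was -0.36, and that of all genes -0.02. Epcam was 2.15-fold lower (-1.10, SE 0.08, adjusted p = 3.201e-07, limma), Krt18 2.08-fold lower (-1.05, SE 0.06, adjusted p = 4.081e-09) and Krt8 1.74-fold lower (-0.80, SE 0.07, adjusted p = 1.279e-06). These 3 had no overlap between genotypes, with Krt18 at 484.5 to 518 in -/- against 983.7 to 1071.7 in +/+ neurons.

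The other falls in neurons were smaller. Spint2 was 1.28-fold lower (-0.36, SE 0.06, adjusted p = 0.000591, limma). Cldn7 (-0.36, SE 0.11, adjusted p = 0.0443) and Cldn6 (-0.33, SE 0.09, adjusted p = 0.02285) passed narrowly. The Cldn7 call was lost in 8 of 16 alternatives and that of Cldn6 in 4. Without replicate 2 of the +/+ neurons, which had the highest Cldn7 and Cldn6 values, the differences were -0.20 (adjusted p = 0.195) and -0.28 (adjusted p = 0.09665). Without -/- replicate 3, which had the lowest Cldn6 value, that difference was -0.21 (adjusted p = 0.09956, limma). Krt19 overlapped between genotypes, with a difference of -0.04 (SE 0.16). Without -/- replicate 1 the sign of the Krt19 difference turned, to 0.24 (adjusted p = 0.07429). Cldn4 was under the 40th percentile in neurons of both genotypes, so no fold is given.

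**Figure D3:**
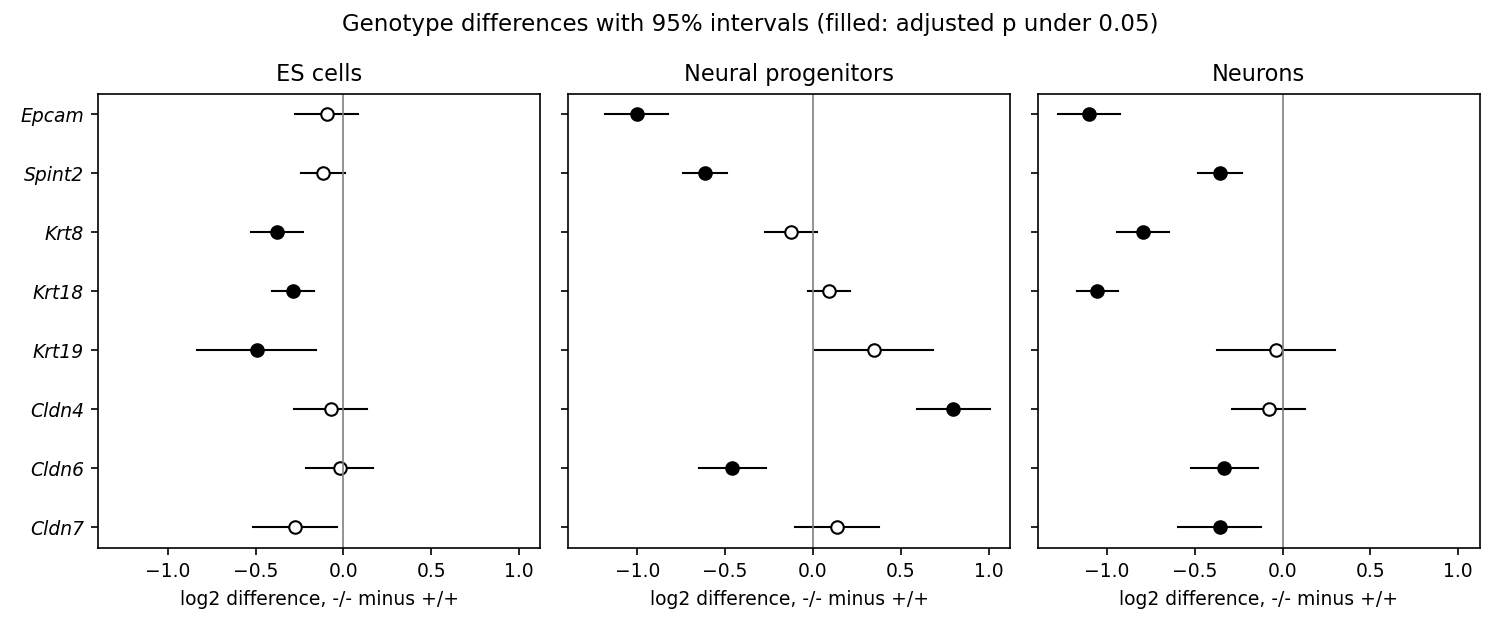
log2 difference, -/- minus +/+, of each member in ES cells, progenitors and neurons, as points with 95% intervals from the limma fit; filled points have an adjusted p under 0.05. Epcam lies near zero in ES cells and near -1 in progenitors and neurons, Krt8 and Krt18 lie below zero in ES cells and neurons but near it in progenitors, and Cldn4 is above zero in progenitors only.

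The genotype effect itself differed between cell types for several members, by the interaction term of the fit. Between progenitors and ES cells 3 members had a higher and 3 a lower effect in progenitors, with 16.3% of all genes called. Epcam had the lowest value, -0.91 (SE 0.12, adjusted p = 7.336e-05, limma), which was -0.29 and not called with the mean of its probe sets, followed by Spint2 at -0.50 (SE 0.08) and Cldn6 at -0.44 (SE 0.13). Cldn4 (0.87, SE 0.14), Krt19 (0.84, SE 0.22) and Krt18 (0.38, SE 0.08) had positive values. The Cldn6 term was lost in 7 of 22 alternatives.

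Between neurons and progenitors, which shares the progenitor arrays with the previous comparison, 3 members had a lower effect in neurons and none a higher one, with 11.1% of all genes called. These were Krt18 (-1.15, SE 0.08, adjusted p = 3.489e-07, limma), Krt8 (-0.67, SE 0.10, adjusted p = 0.0003334) and Cldn4 (-0.88, SE 0.14, adjusted p = 0.00068). The Cldn4 term rests on its progenitor arrays, since both neuron groups lay under the 40th percentile. For Epcam the term was -0.10 (SE 0.12, 95% interval -0.35 to 0.15). Between neurons and ES cells the effect was lower for 3 members and higher for none, with 15.7% of all genes called: Epcam (-1.01, SE 0.12, and -0.43 with the mean of its probe sets), Krt18 (-0.77, SE 0.08) and Krt8 (-0.42, SE 0.10, adjusted p = 0.009795, limma). Without -/- neuron replicate 1 the Krt19 term of this comparison was 0.74 and called (adjusted p = 0.0007699).

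Genes with several probe sets allowed a check, in a fit over all probe sets with p-values adjusted over them. The other 2 Krt8 probe sets gave genotype differences of -0.50 and -0.42 in ES cells and of -0.67 and -0.82 in neurons, all called, while in progenitors they gave -0.14 and -0.12 and were not called. For the term between neurons and ES cells, 1 of them gave -0.17 (adjusted p = 0.3107, limma) and the other -0.40 (adjusted p = 0.02474). The other Spint2 probe set gave -0.14, -0.63 and -0.43 in the same order. The second Epcam probe set did not follow the first. It was dim, with intensities of 64.1 to 294.1 over the 18 arrays. Its genotype differences were -0.22, 0.12 and -0.06 in ES cells, progenitors and neurons, with adjusted p = 0.3739, 0.7083 and 0.8699 by limma. It did fall from ES cells to progenitors, with differences of -1.56 in +/+ and -1.22 in -/- cells. From progenitors to neurons it gave -0.20 in +/+ cells (adjusted p = 0.2336, limma), with overlapping arrays. In -/- cells that step was -0.38 (adjusted p = 0.02817, limma). Its terms were 0.34 between progenitors and ES cells and 0.16 between neurons and ES cells (adjusted p = 0.3224 and 0.6822). The Epcam genotype results therefore rest on the bright probe set. With the mean of both probe sets the differences were -0.44 in progenitors and -0.58 in neurons, both called. The term between progenitors and ES cells was then -0.29 (adjusted p = 0.1142, limma) and not called, and that between neurons and ES cells was -0.43 (adjusted p = 0.02489).

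Over the 18 arrays Krt8 and Krt18 had a Pearson r of 0.9806 in their log2 values, and Krt19 had 0.8672 with Krt8. Epcam correlated with Cldn4, Cldn6 and Cldn7 at 0.9368, 0.9367 and 0.9509 and with Krt8 at -0.03. The 18 arrays share the 3 cell types, so these values mostly describe the course of differentiation. Outside the members, the gene most like Krt8 was Cmtm7 (r = 0.9921), and the most like Krt18 was Dsp (0.9789), which encodes the protein that ties keratin filaments to desmosomes. Krt19 was most like Fam181a (0.9706) and Mecom (0.97). Epcam was most like Smagp (0.9971), Trim25 (0.9963) and Jade1 (0.9945), Cldn4 like Etl4 (0.9954), Cldn6 like Nsun2 (0.9939), Sall4 (0.9937) and Trim71 (0.9932), Cldn7 like Cdc14b (0.9923) and Epha2 (0.992), and Spint2 like Slc37a1 (0.9811) and Smim22 (0.9807). For the mean of the 8 standardised members the closest gene was Rhox6 (0.9858).

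Counts of called genes in the lists that follow include genes under the 40th percentile in one or both groups, whose exact log2 change is no measure of size. Over all tested genes, 10.5% rose and 4.32% fell in -/- ES cells. The shares were 7.81% and 9.19% in -/- progenitors and 5.95% and 7.27% in -/- neurons. Of 6 other simple and trophoblast keratins, all on the array, 3 passed the filter on dim probe sets and were tested. Krt7, a keratin of simple and glandular epithelia, was 0.82 higher (SE 0.10, adjusted p = 1.789e-05, limma) in -/- progenitors, with means of 178.5 against 100.5, and lower in -/- neurons, where its mean of 37.0 lay near the 40th percentile, with 2 of 3 arrays under it. With those arrays set at that percentile, Krt7 was at least 1.84-fold lower there. Krt23 fell in -/- progenitors from a mean of 47.2 to one under the 40th percentile. Krt80 did not pass in any genotype comparison. Among 8 tested of 20 stratified and hair keratins, 1 rose in -/- ES cells (Krt10, 0.60, SE 0.08), and none passed in progenitors or neurons.

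Of 12 other claudins tested, none passed in ES cells, where 14.9% of all genes were called. In -/- progenitors 1 rose (17% of all genes called), and in -/- neurons 2 rose and 2 fell (13.2%). Cldn3, the neighbouring gene of Cldn4, rose by 0.41 (SE 0.11, adjusted p = 0.01427, limma) in -/- progenitors and fell by 0.36 in -/- neurons. Cldn1, a claudin of skin and other epithelia, was 1.02 higher (SE 0.14) in -/- neurons, and Cldn10 was 0.57 higher. Cldn12 followed the keratin profile along the lineage, with a difference of 1.82 from ES cells to progenitors and of -2.34 from progenitors to neurons in +/+ cells. Cldn9, the neighbouring gene of Cldn6, stayed at means of 34.3 to 43.6, close to the 40th percentile.

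Among 25 other tight junction and apical polarity genes, 6 rose and 3 fell in -/- ES cells, where 14.9% of all genes were called. In -/- progenitors 4 rose and 8 fell (17% of all genes called), and in -/- neurons 1 rose and 5 fell (13.2%). The list's median differences were 0.05, -0.05 and -0.07, beside medians of 0.04, 0.002 and -0.02 over all genes. Ocln, the junction strand protein occludin, fell by 0.33 in ES cells, and differed by -1.003 in progenitors (SE 0.07, adjusted p = 3.599e-08, limma) and by -0.74 in neurons. F11r, encoding the junctional adhesion molecule JAM-A, fell by 0.66 in progenitors and by 0.70 in neurons. The polarity genes Pard6b (-0.71) and Prkcz (-0.61) fell in progenitors. Cgnl1, encoding a cytoplasmic plaque protein of junctions, rose by 0.37, 0.49 and 0.60 in the 3 cell types.

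Of 19 adherens junction and desmosome genes, 1 rose in -/- ES cells, where 14.9% of all genes were called. In -/- progenitors 3 rose and 1 fell (17% of all genes called), and in -/- neurons 1 rose and 4 fell (13.2%). The desmosome gene Dsp fell by 0.99 in neurons (SE 0.14, adjusted p = 0.0001208, limma) from a mean of 241.4 to 120.1, while the desmosomal cadherin Dsc2 rose by 1.003 (SE 0.15). Cdh1, encoding E-cadherin, fell by 3.33 from +/+ ES cells to +/+ progenitors, and its means were 491.9 in +/+ and 453.6 in -/- progenitors, with no genotype call in any cell type. Among 12 keratin linkers, 2 rose and 1 fell in ES cells, 3 rose in progenitors, and 2 fell in neurons (Dsp and Krtcap3). These counts stood beside the same shares of all genes. In progenitors Plec and Dst rose by 0.47 and 0.43, and Eppk1, under the 40th percentile on all 3 +/+ arrays, was at least 1.31-fold higher.

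The protease list, with relatives of Epcam and Spint2 and the membrane proteases that Kunitz inhibitors act on, had 7 tested genes. None passed in ES cells (14.9% of all genes called), and 3 fell in both -/- progenitors (17%) and -/- neurons (13.2%). St14, encoding matriptase, fell by 0.78 (SE 0.08, adjusted p = 4.781e-06, limma) in progenitors and by 0.45 in neurons. Tmprss2 fell by 0.96 and 0.63. Prss8, encoding prostasin, fell by 0.34 in progenitors. In neurons all 3 -/- arrays of Prss8 were under the 40th percentile, and it was at least 1.16-fold lower than the +/+ mean of 43.7. Spint1, the other Kunitz inhibitor of matriptase, fell by 3.02 from +/+ ES cells to +/+ progenitors and had no genotype call.

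Of 16 epithelial regulators, 2 fell in -/- ES cells, where 14.9% of all genes were called. In -/- progenitors 1 rose and 6 fell (17% of all genes called), and in -/- neurons 1 rose and 5 fell (13.2%). Klf4 fell in all 3 cell types, by 0.63, 1.08 and 0.48, and Klf5 by 0.50 in ES cells and 0.72 in progenitors. Esrp1, a splicing factor of epithelial cells, fell by 0.88 (SE 0.08, adjusted p = 1.1e-06, limma) in progenitors, and in neurons it was under the 40th percentile on all arrays of both genotypes, although it is among the 5 called there. Elf3, an epithelial transcription factor, fell by 0.48 in progenitors and 0.44 in neurons. Foxa1, a factor of endoderm and floor plate, rose by 1.43 in progenitors and 1.48 in neurons. Grhl2 fell by 3.62 from +/+ ES cells to +/+ progenitors, and its means of 46.8 and 53.2 in +/+ and -/- progenitors had no genotype call.

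Among 15 regulators and products of the epithelial to mesenchymal transition, 3 rose and 1 fell in -/- ES cells (14.9% of all genes called). In -/- progenitors 7 rose and none fell (17%), and in -/- neurons 4 rose and 1 fell (13.2%). In progenitors the largest rises were Twist1 (0.93, SE 0.08), Snai2 (0.81, SE 0.16), Cdh11 (0.75) and Fn1 (0.71). Zeb1 and Zeb2, the E-box repressors, rose from +/+ ES cells to +/+ progenitors, Zeb1 by 2.30. Zeb2 was at a mean of 32.3 in +/+ ES cells, with 2 of 3 arrays under the 40th percentile, and its rise was at least 14.4-fold with those arrays set at that percentile. Between genotypes Zeb1 passed in ES cells alone, at 0.37 (SE 0.06, adjusted p = 0.001275, limma). Of 15 other intermediate filament genes, 1 rose and 2 fell in ES cells, 2 rose in progenitors, and 7 fell in -/- neurons with none rising. The neurofilament genes Nefm and Nefl fell by 0.74 and 0.58 in -/- neurons, in the cells in which Krt8 and Krt18 fell. Both belong to the 11 neuron markers, of which 3 fell and none rose in -/- neurons, with 13.2% of all genes called.

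**Figure D4:**
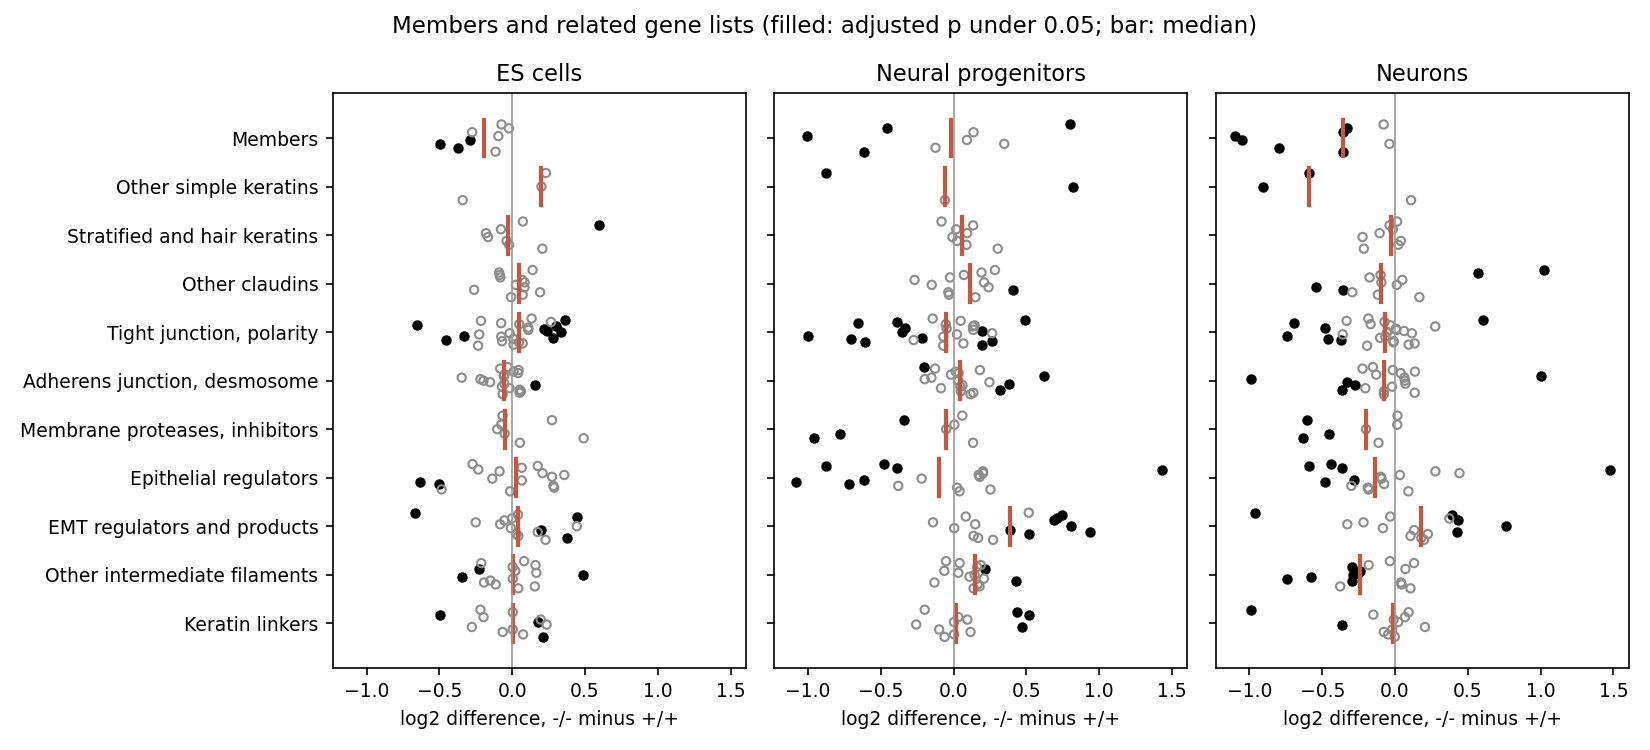
log2 difference, -/- minus +/+, of each tested gene (points) of the members and of 10 related lists in ES cells, progenitors and neurons; filled points have an adjusted p under 0.05 and red bars are list medians, with points spread vertically for visibility. In neurons the members' median of -0.36 lies below that of most lists, and in progenitors the transition list has the highest median, 0.39.

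Markers of other cell types moved with genotype in the neural cultures, and several of these cell types are epithelial or express keratins. Of 13 markers of visceral and definitive endoderm, 1 rose and 8 fell in -/- progenitors (17% of all genes called). In -/- neurons 6 of them fell (13.2% of all genes called). Sox17, Sox7, Gata6 and Gata4 differed by -1.79, -1.79, -1.64 and -1.38 in progenitors, and all 4 passed the test. The summed intensity of the list was 9512 to 9696 in +/+ and 4837 to 5088 in -/- progenitors, and 5697 to 8659 in +/+ and 5098 to 5948 in -/- neurons, against 511 to 627 in ES cells. Much of the +/+ progenitor sum was Sox17, at a mean of 4710 against 1359 in -/- progenitors. Much of the neuron sum was Ttr, at means of 4437 and 3603, a gene that choroid plexus cells also express.

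Of 11 fibroblast and mesenchyme markers, which feeder cells also express, 10 rose in -/- progenitors, where 17% of all genes were called. In -/- neurons 8 of these markers rose (13.2% of all genes called). Their sums were 13469 to 14281 in +/+ and 23184 to 23435 in -/- progenitors. In neurons these sums were 18834 to 22237 in +/+ and 30081 to 34861 in -/- cells. In ES cells they were 1428 to 1518 in +/+ and lower, 1103 to 1186, in -/- cells. The part that feeders had in these sums was not tested. Of 7 floor plate markers, 6 rose in -/- progenitors and 6 in -/- neurons, beside the same shares of all genes. Their sums were 5081 to 5375 in +/+ and 11453 to 11800 in -/- progenitors, where Shh alone had means of 2377 and 5886. Of 10 ES cell markers, 1 rose and 6 fell in -/- progenitors, with sums of 1937 to 2058 in +/+ and 1219 to 1361 in -/- cells. None of these markers was listed at 0, since the lowest value in the data was 5.5.

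Of 11 surface and stratified epithelium markers 5 were tested, with sums of 320 to 344 in +/+ and 260 to 300 in -/- progenitors, and 1 of them, Esrp1, fell there. Of all genes, 17% were called between genotypes in progenitors and 13.2% in neurons. The 8 trophoblast markers summed to 653 to 690 in +/+ and 759 to 841 in -/- progenitors, where 2 rose (Krt7 and Tpbpa) and 2 fell (Cdx2 and Eomes). The 6 mesothelium markers summed to 248 to 311 in progenitors and 157 to 174 in neurons. The 8 choroid plexus and ependyma markers summed to 6357 to 9426 in +/+ and 6131 to 7029 in -/- neurons, where 2 rose and 2 fell. The part that any of these cell types had in the members' differences was not tested.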

How the data were processed

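The deposited table gives one intensity per probe set and array on a linear scale. The submitters' processing notes name RMA and limma for the authors' own steps, with neither version nor settings. Of 45101 probe sets, 64 controls, 9160 without a symbol and 932 with several were left out. Values were taken to log2(value + 1). Probe sets reaching the 40th percentile of the array on at least 3 arrays were kept (26311), and the brightest stood for each of 14432 genes (6823 had several). A model of 6 group means was fitted over 18 arrays (12 residual degrees of freedom) with limma 3.58.1 under R 4.3.3, by lmFit, contrasts.fit and eBayes. A change was called at a Benjamini-Hochberg adjusted p under 0.05 over all tested genes. The code was tested on simulated data. An array has no counting depth, and the number of arrays limits the precision.

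The members and gene lists were chosen with earlier results of these data known. Named were all members, up to 4 called genes of a list and comparison with the largest change, and a list's defining genes. Of the genes most alike in pattern (10 for the members' mean and 3 for each member), only some were named. Genes outside this rule (neighbouring genes, for example) were named after their values were seen. Alternatives were quantile normalization, other pseudocounts and filters, the mean of probe sets, fits of only the groups compared, array weights, a variance trend, a replicate block and leaving out each array. Using the other probe sets of Epcam, Spint2 and Krt8 was added after the data were seen. Promoters were RefSeq windows of 250 bases.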

Additional observations from a re-analysis of the deposited data

Results flagged for a closer look

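For several members the genotype effect differed between cell types, by the interaction term of the limma fit (adjusted p under 0.05). Of all tested genes, 16.3% were called between progenitors and ES cells, 11.1% between neurons and progenitors and 15.7% between neurons and ES cells. Between progenitors and ES cells the difference in effect was -0.91 for Epcam, -0.50 for Spint2, 0.38 for Krt18, 0.84 for Krt19, 0.87 for Cldn4 and -0.44 for Cldn6. Between neurons and progenitors it was -0.67 for Krt8, -1.15 for Krt18 and -0.88 for Cldn4. Between neurons and ES cells it was -1.01 for Epcam, -0.42 for Krt8 and -0.77 for Krt18. The Cldn6 term was lost in 7 of 22 alternatives. Cldn7 had no called term, but that between neurons and progenitors (-0.50) gained a call in 6 of 22 alternatives. The uncalled Krt8 term between progenitors and ES cells (0.25) gained a call in 2 of 22. These 3 comparisons share arrays, so their values are not independent of each other. The Epcam terms rest on its bright probe set: with the mean of both they were -0.29 between progenitors and ES cells, not called, and -0.43 between neurons and ES cells, and the dim probe set alone gave 0.34 and 0.16.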

How the results depend on the processing

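Of 1692 member values under an alternative, 1618 kept their direction and their side of the threshold, 32 lost a call, 22 gained one and 20 changed sign. Of these sign changes 1 was of a called value, Epcam in progenitors on its dim probe set (0.1206). With the mean of probe sets, Spint2 between +/+ neurons and progenitors was -0.03318 and Krt8 between +/+ neurons and ES cells -0.0126, both without a call. The uncalled Cldn4 term between neurons and ES cells was 0.02535 with quantile normalization, 0.02126 with a pseudocount of 16 and 0.03689 with array weights. Leaving out 1 array at a time, values that crossed zero ran from -0.1628 to 0.04038 for Cldn4 and -0.06319 to 0.02195 for Cldn6 in ES cells. In neurons they ran from -0.2086 to 0.2438 for Krt19 and -0.1527 to 0.0005203 for Cldn4. The terms between neurons and ES cells ran from -0.1187 to 0.08452 for Cldn4 and -0.1934 to 0.0788 for Cldn7.

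The count of called members fell from 3 to 1 in ES cells when the groups compared were fitted alone. It rose from 3 to 5 for the term between neurons and progenitors with a 60th percentile filter, array weights or a variance trend, where Spint2 and Cldn7 joined. Leaving out 1 array gave 2 in ES cells, 4 in progenitors and 4 to 5 in neurons, and 5 to 7, 3 to 4 and 3 to 4 for the terms between progenitors and ES cells, neurons and progenitors, and neurons and ES cells. Over all genes, calls in ES cells went from 2144 (1520 higher) to 1686 (914 higher) with quantile normalization, 1126 with array weights and 234 with the groups compared alone. Those in progenitors went from 2453 to 3989 with array weights. The term between neurons and progenitors went from 1599 to 2370 with array weights. That between neurons and ES cells went from 2260 (679 higher) to 1840 (797 higher) with quantile normalization and 1270 with the groups compared alone. The cause of these changes was not tested.

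Replicate numbers did not pair the arrays. Deviations of same-numbered arrays correlated at -0.20 to 0.12, with 3 of 45 pairs above 0.1, and 5 arrays correlated best with their own number. With a replicate block the called members were 3, 4 and 6 in ES cells, progenitors and neurons, and 6, 4 and 3 for the terms, where Cldn7 joined between neurons and progenitors (-0.50). The stage counts were 8, 8, 7, 8, 7 and 8 with and without the block. Shares of all genes under the block are not given here. Without it they were 14.9%, 17% and 13.2% for genotype, 16.3%, 11.1% and 15.7% for the terms and 77.7% to 88.7% for the stages. Signal over background limits Cldn4 in all 6 neuron arrays and Cldn6 in 1.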

Other observations

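The keratin Krt7 and the keratin linker Eppk1 also had genotype differences that turned between cell types, each with a group at the 40th percentile of the arrays. Krt7 had means of 100.5 in +/+ and 178.5 in -/- progenitors and of 70.7 in +/+ and 37.0 in -/- neurons. Its term between neurons and progenitors was -1.73 (SE 0.14, adjusted p = 2.227e-06, limma), and -1.70 with the 2 of 3 -/- neuron arrays that were under the 40th percentile set at it. For Eppk1, which encodes a cytolinker that binds keratin filaments, the -/- ES cells were lower (-0.50, SE 0.10, adjusted p = 0.003533), with means of 163.7 in +/+ and 115.5 in -/- cells. The -/- progenitors were at least 1.31-fold higher, with all 3 +/+ arrays under the 40th percentile.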
